A study of Mus musculus with 7 samples.

Results

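The B cell receptor signalling and coreceptor genes are a list of 43 genes, fixed by name, out of the 48795 genes in the deposited table. The list was chosen with earlier results of these data known. Its genes were described here in splenic memory B cells (MBCs) and plasma cells (PCs) sorted from immunized mice. Every member was found in the table by its Ensembl identifier, was above 0 in all 7 libraries, and passed the filter on low values (a TPM of at least 1 in at least 3 libraries, where TPM is a length-corrected share of the library's transcripts), so that all 43 were tested. Bulk RNA sequencing was carried out on 3 MBC and 4 PC libraries from wild type C57BL/6 female mice aged 8 to 12 weeks, 10 days after intravenous injection of sheep red blood cells. MBCs were sorted as B220+ CD138Neg IgDneg CD38+ CD273+ cells and PCs as B220lo CD138+ IgD- cells after magnetic separation with CD43 MicroBeads. All mice received the same immunization and no naive B cell library entered the comparison. The measured contrast is therefore between 2 cell populations sorted from immunized mice. The gates did not select for binding of the injected cells. The labels do not say whether a library came from 1 mouse or from pooled mice.

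The B cell receptor is a membrane immunoglobulin that signals through the paired chains CD79A and CD79B. Binding of antigen lets Src family kinases and SYK act on these chains. BLNK then brings BTK and phospholipase C gamma together, which opens calcium stores and activates protein kinase C, NFAT and NF-kappaB. Coreceptors set the strength of the signal: the complex that holds CD21 and CD81 raises it, whereas CD22, CD72 and Siglec-G recruit phosphatases that lower it. Memory B cells depend on the receptor for recall, and plasma cells are known for secreting the immunoglobulin instead of displaying it at high density.

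Levels are given as scaled TPM, which is TPM divided by 1 scaling factor per library, and libraries are listed in replicate order. Log2 fold changes (log2FC) are PC minus MBC of log2(scaled TPM + 1), a scale that makes changes of low genes look smaller, and come from limma fitted to all 11573 genes tested, with Benjamini-Hochberg adjustment over all of them. A gene was called where the adjusted p was under 0.05 and the log2FC was 1 or more, or -1 or less. Scaling matters here because immunoglobulin genes took 49.4 to 55.9% of TPM in PCs and 1.65 to 3.16% in MBCs. Genes of the mitochondrial genome took 33.2, 33.5 and 19.7% in MBCs and 8.1 to 9.8% in PCs, and ribosomal RNA genes 7.32, 7.82 and 17.04% in MBCs and 12.4 to 15.97% in PCs. The median log2FC of all genes tested was 0.14 after scaling and -0.91 in TPM as deposited. Of all genes tested, 742 were called higher in PCs and 248 lower, against 472 and 3018 in TPM as deposited and 393 and 431 with immunoglobulin genes removed. With immunoglobulin, mitochondrial and ribosomal RNA genes removed the calls were 433 higher and 289 lower, and with quantile normalization they were 675 and 460.

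The library labelled MBC replicate 3 and PC replicate 4 carried 1 title prefix, and all other libraries another. The labels do not say what the prefix marks. The library labelled MBC replicate 3 stood apart from the other 2 MBC libraries. Of the genes of its sort, Cd38 was at 6.77 scaled TPM (130.3 and 186 in the others, 9.89 to 21.3 in PCs) and Pdcd1lg2, the gene of CD273, at 2.59 (43.3 and 24.4 in the others, 0 to 2.84 in PCs). Ptprc, the gene of B220, was at 529 there, below the other MBCs (969.6 and 1526) and above the PCs (262 to 315). The 4 B cell identity genes (Pax5, Ebf1, Cd37 and Fcer2a) also kept this library above every PC, as with Fcer2a at 104 scaled TPM, compared with 292 and 343 in the other MBCs and 7.95 to 15.7 in PCs, and all 4 were called lower in PCs. Its 7 germinal center B cell markers summed to 664 scaled TPM, compared with 244 and 270.1 in the other MBC libraries and 70.3 to 139 in PCs, and its 10 proliferation genes to 909, compared with 142 and 174 and with 430.5 to 626. The PC marker Sdc1 (CD138) was at 0, 0 and 0.0585 scaled TPM in MBCs and 49.6 to 78.1 in PCs, and all 5 PC markers were called higher in PCs. Markers of T cells summed to 0 to 1.75 scaled TPM in MBCs and 70.3 to 91.8 in PCs, and 3 of the 8 were called higher in PCs. Most of the PC sum was Cd28, at 41.9 to 55.7, while Cd3e was at 3.86 to 14.2, Trac at 2.501 to 23.1, Cd3d, Cd3g, Cd4 and Thy1 each at 6.42 or less, and Cd8a at 0 in 3 of the 4 PC libraries. The 8 myeloid markers summed to 2.32 to 28.99 in MBCs and 190.3 to 292 in PCs, nearly all of it Ly6c2 (0 in MBCs, 184 to 289.7 in PCs, the 1 myeloid marker called higher), with S100a9 at 0 in all libraries. Erythroid markers reached 2897 scaled TPM in MBC replicate 2, compared with 0.3198 to 72.6 in the other 6 libraries. The part of these differences in the results below was not tested, and results are given with and without the library labelled MBC replicate 3. In sorted bulk samples, fewer cells of a type and less RNA per cell cannot be told apart.

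PCs held lower levels of 5 of the 6 coreceptors and of some kinases, adaptors, phosphatases and a ubiquitin ligase. Of the 43 members, 13 were called lower in PCs (Cr2, Ms4a1, Cd22, Cd72, Siglecg, Lyn, Blk, Prkcb, Pik3ap1, Bank1, Ptpn6, Inpp5d and Cblb), 1 was called higher (Cd81), and 29 were not called. That is 30.2% of members called lower, against 2.14% of all genes tested, and 2.33% called higher, against 6.41% of all genes tested. The genes tested were not matched to the members in level, and the list was chosen with earlier results known. The median log2FC was -1.05 over the members and 0.14 over all genes tested, with 35 members below 0 and 8 above. The MBC and PC values of 21 members (48.8%) did not overlap with PCs lower, against 8.68% of all genes tested, and those of 1 member did not overlap with PCs higher, against 13.0%. Without the library labelled MBC replicate 3, 22 members were called lower, against 8.2% of the 10748 genes then tested, and 1 higher, against 15.1%, and the median of the members was -1.38. All 13 members called lower in all libraries were among these 22. The other 9 were Syk, Themis2, Vav2, Malt1, Cbl, Itpr1, Itpr2, Nfatc1 and Nfatc2. Every other omission of 1 library lowered the count, to 7 to 10 members, with 93 to 153 of all genes tested called lower. Of the 13, 7 were called whichever library was left out (Cr2, Ms4a1, Cd22, Cd72, Siglecg, Prkcb and Bank1). With the replicate number or the title code as a block, 5 and 7 members were called lower, with 60 and 83 of all genes tested. The library labelled MBC replicate 3 was the lowest MBC library for 29 of the 43 members and for 11 of the 13 called lower. It was also the lowest for 41 of the 67 other pathway genes described below. The share over all genes tested was not computed.

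**Figure D1:**
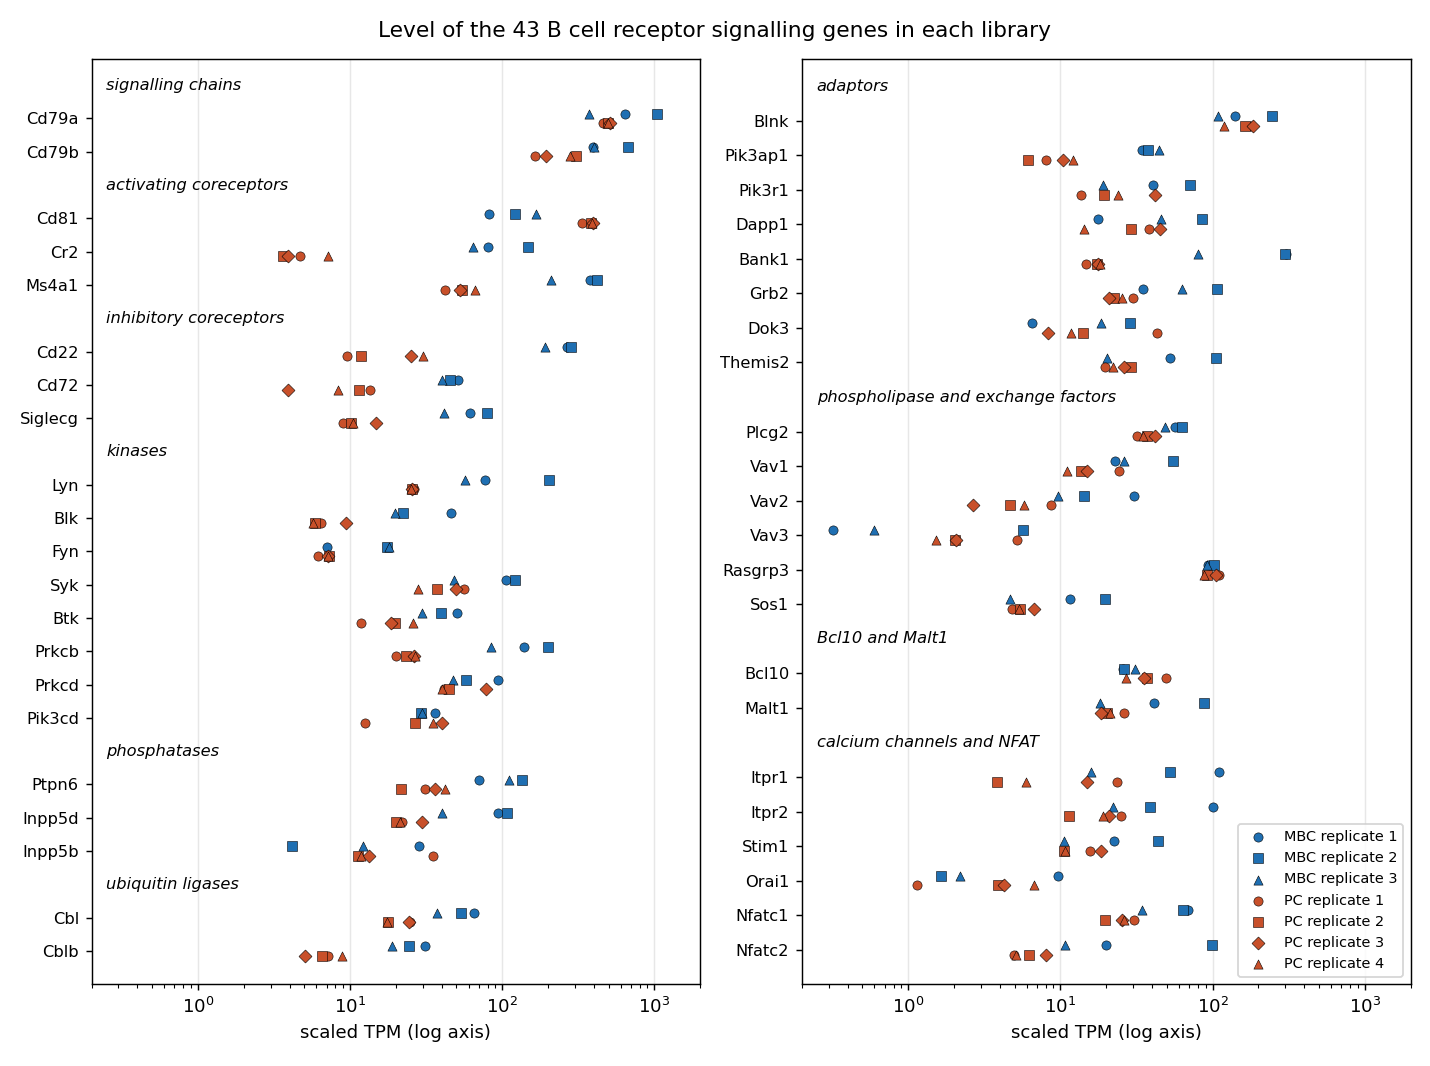
Level of each of the 43 genes in each library, in scaled TPM on a log axis, grouped by role. Points are single libraries, MBCs in blue above and PCs in orange below each gene's line. Cr2, Cd22 and Bank1 show the widest gaps between the groups, Cd81 lies higher in PCs, and Blnk and Rasgrp3 overlap.

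The signalling chains themselves were among the most abundant members in both populations. Cd79a (chr7:24897381-24902197, GRCm38, plus strand) was at 638, 1039.7 and 374 scaled TPM in MBCs and 458, 499, 510.4 and 494 in PCs. The PC libraries lay within a narrow range inside that of the MBCs, and the log2FC was -0.36 (95% confidence interval -1.20 to 0.48, adjusted p = 0.605). Cd79b (chr11:106311341-106314762, minus strand) was at 397, 670.1 and 401 scaled TPM in MBCs and 163, 307, 194 and 279 in PCs. All MBC libraries were above all PC libraries, with a log2FC of -1.05 (95% confidence interval -1.85 to -0.26, adjusted p = 0.108), which was not called. Both chains depended on the scaling: Cd79b was called lower with immunoglobulin genes removed (-1.34, limma, adjusted p = 0.0248), with immunoglobulin, mitochondrial and ribosomal RNA genes removed (-1.19, adjusted p = 0.0403) and with quantile normalization (-2.20, adjusted p = 0.00235), and Cd79a with quantile normalization (-1.84, adjusted p = 0.0285). In TPM as deposited both were called lower, at -1.68 for Cd79a and -2.37 for Cd79b. Without the library labelled MBC replicate 3 the log2FC was -0.73 (adjusted p = 0.115) for Cd79a and -1.17 (adjusted p = 0.05702) for Cd79b, and neither was called.

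The activating coreceptors went in both directions. Cr2, which encodes complement receptors CD21 and CD35 and binds complement-coated antigen, was at 80.5, 148 and 63.8 scaled TPM in MBCs and 4.72, 3.64, 3.92 and 7.19 in PCs. The lowest MBC library was above the highest PC library, and Cr2 had the most negative log2FC of the members, -4.01 (SE 0.437, adjusted p = 0.000399), a ratio of means of 20.02. Ms4a1, which encodes the B cell surface protein CD20, was at 376, 419 and 208 scaled TPM in MBCs and 42.1, 54.5, 52.5 and 65.99 in PCs. The groups did not overlap, with a log2FC of -2.57 (SE 0.347, adjusted p = 0.00156). Cd81, a tetraspanin of the activating coreceptor complex, was at 81.7, 121 and 166 scaled TPM in MBCs and 335, 386, 397 and 389 in PCs. All PC libraries were above all MBC libraries and close to each other, with a log2FC of 1.67 (SE 0.321, adjusted p = 0.0114), and the library labelled MBC replicate 3 was the highest of the MBCs. The difference was 1.91 (adjusted p = 0.00352) without that library. Cd81 was the only member called higher, and it was not called with the replicate number or the title code as a block (adjusted p = 0.0819 and 0.0512), nor with quantile normalization (0.96, limma, adjusted p = 0.177) or in TPM as deposited (0.35, adjusted p = 0.499).

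The inhibitory coreceptors were all 3 called lower in PCs. Cd22, a sialic acid binding lectin that recruits the phosphatase SHP-1 to the receptor, was at 268, 283 and 192 scaled TPM in MBCs and 9.595, 11.8, 25.05 and 30.03 in PCs, a ratio of means of 12.95. PC replicates 3 and 4 were above PC replicates 1 and 2, and all were far below the MBCs, with a log2FC of -3.75 (SE 0.446, adjusted p = 0.000697). Siglecg, a related lectin that restrains calcium signalling, was at 61.03, 79.3 and 41.2 scaled TPM in MBCs and 8.95, 10.1, 14.7 and 10.4 in PCs. Cd72, a C-type lectin that also recruits SHP-1, was at 51.3, 45.2 and 40.2 scaled TPM in MBCs and 13.6, 11.4, 3.92 and 8.37 in PCs. Neither gene's groups overlapped, and the log2FCs were -2.33 (SE 0.386, adjusted p = 0.00506) for Siglecg and -2.28 (SE 0.458, adjusted p = 0.0143) for Cd72. Exons of Cd72 overlap exons of Tesk1 on the opposite strand over 1423 bases, and those of Cd22 an antisense gene over 479 bases. Shorter exon overlaps with a gene on the opposite strand, of 7 to 248 bases, were found for Cd81, Lyn, Ptpn6, Inpp5b, Itpr1 and Orai1. Whether the counting used strand is not given in the sources used here, so that reads of such pairs may not be separated. Cr2, Ms4a1, Cd22, Cd72, Siglecg and Cd81 were called whichever of the 7 libraries was left out, and with the replicate number as a block Cd72 and Siglecg were not (adjusted p = 0.0855 and 0.0733).

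To show the sequence at the start of genes with different patterns, the RefSeq promoter windows (GRCm38.p6, 250 bases before to 50 after the start) are printed for 5 members, chosen after their values were seen: Cr2 and Cd22 as coreceptors called lower, Prkcb as a kinase called lower, Blnk as an adaptor at a like level in both populations, and Cd81 as the member called higher. The windows are chr1:195176670-195176969 (minus strand) for Cr2, chr7:30878979-30879278 (minus) for Cd22, chr7:122288875-122289174 (plus) for Prkcb, chr19:40994172-40994471 (minus) for Blnk and chr7:143052500-143052799 (plus) for Cd81, each read 5′ to 3′ along the gene. Capitals mark matches to motifs of B lineage factors described below.
Cr2: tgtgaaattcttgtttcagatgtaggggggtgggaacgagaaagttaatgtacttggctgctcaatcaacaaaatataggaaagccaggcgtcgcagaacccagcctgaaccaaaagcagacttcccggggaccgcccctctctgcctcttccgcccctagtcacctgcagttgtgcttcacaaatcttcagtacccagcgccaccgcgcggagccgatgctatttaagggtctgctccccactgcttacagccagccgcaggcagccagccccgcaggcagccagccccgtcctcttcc
Cd22: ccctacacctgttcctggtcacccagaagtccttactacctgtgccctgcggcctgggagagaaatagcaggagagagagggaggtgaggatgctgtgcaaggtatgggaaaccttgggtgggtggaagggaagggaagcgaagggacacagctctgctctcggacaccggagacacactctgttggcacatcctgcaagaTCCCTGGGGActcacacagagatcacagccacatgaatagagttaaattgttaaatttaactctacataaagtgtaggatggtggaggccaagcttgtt
Prkcb: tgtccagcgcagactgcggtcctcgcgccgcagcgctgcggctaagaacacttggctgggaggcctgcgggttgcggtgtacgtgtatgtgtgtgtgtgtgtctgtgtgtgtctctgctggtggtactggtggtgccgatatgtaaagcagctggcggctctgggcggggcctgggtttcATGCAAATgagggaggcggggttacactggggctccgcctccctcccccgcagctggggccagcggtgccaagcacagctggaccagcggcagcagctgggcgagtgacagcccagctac
Blnk: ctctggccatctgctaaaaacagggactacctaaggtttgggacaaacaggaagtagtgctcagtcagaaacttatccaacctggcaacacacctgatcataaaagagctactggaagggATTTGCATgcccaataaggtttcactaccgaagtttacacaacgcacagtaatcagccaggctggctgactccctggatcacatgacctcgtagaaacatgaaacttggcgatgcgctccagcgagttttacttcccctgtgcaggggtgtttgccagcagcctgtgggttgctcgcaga
Cd81: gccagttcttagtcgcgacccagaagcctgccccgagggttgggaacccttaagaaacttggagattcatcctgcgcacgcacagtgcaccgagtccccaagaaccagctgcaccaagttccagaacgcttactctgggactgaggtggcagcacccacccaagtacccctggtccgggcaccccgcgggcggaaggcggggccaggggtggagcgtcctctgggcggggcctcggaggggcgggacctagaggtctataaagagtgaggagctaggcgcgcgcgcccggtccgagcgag

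Windows were found for 36 of the 43 members, 47 windows in all, and both strands were searched for 3 sets of letters. The octamer ATGCAAAT, bound by OCT factors, was present in 6.38% of member windows (Blnk, Orai1 and Prkcb), compared with 1.74% of all 32851 windows. In Prkcb it began 70 bases before the start, and in Blnk its reverse complement ATTTGCAT began 130 bases before. The letters TCCCNNGGG, a core of the EBF1 motif, were in 10.6% of member windows (Cd22, Fyn, Itpr2 and Vav3), compared with 6.56% of all windows. In Cd22, 2 overlapping matches, TCCCTGGGG and its partner on the other strand, began 49 and 48 bases before the start. The letters AGNGAAAG, a core of the motif of PRDM1, the plasma cell repressor, were in 4.26% of member windows (Grb2 and Rasgrp3) and 8.63% of all windows, and in 0 of the 11 windows of members called lower. None of these motifs was in the printed windows of Cr2 and Cd81. A match describes the letters of the window and not binding, and most members carried none of the 3. The member windows are few, and none of their percentages was tested against that of all windows.

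Among the kinases, 3 of 8 were called lower (Lyn, Blk and Prkcb), and all 8 log2FCs were below 0, with a median of -1.04. The Src family kinases start the signal. Lyn, the main one in B cells, which also phosphorylates inhibitory receptors, was at 76.9, 203 and 56.6 scaled TPM in MBCs and 26.4, 25.5, 25.6 and 25.01 in PCs. The PCs lay close together, from 25.0 to 26.4, while MBC replicate 2 was far above the other MBCs, and the groups did not overlap, with a log2FC of -1.87 (SE 0.444, adjusted p = 0.0306). The call held when MBC replicate 2 (adjusted p = 0.0391) or the library labelled MBC replicate 3 (0.00842) was omitted, and was lost without MBC replicate 1 (0.0513) or without any of PC replicates 1 to 4 (0.0728 to 0.08698). Blk was at 45.8, 22.2 and 19.8 scaled TPM in MBCs and 6.48, 5.89, 9.39 and 5.69 in PCs. Here MBC replicate 1 was the highest, and the log2FC of -1.87 (SE 0.452, adjusted p = 0.0325) was likewise kept without MBC replicate 2 (0.0372) or the library labelled MBC replicate 3 (0.0163), and lost without MBC replicate 1 (0.0811) or any of PC replicates 1 to 4 (0.0621 to 0.1103). Fyn, another Src family kinase, was at 7.09, 17.5 and 18.1 scaled TPM in MBCs and 6.12, 7.31, 7.11 and 7.14 in PCs. MBC replicate 1 fell among the PCs, and the log2FC was -0.84 (SE 0.473, adjusted p = 0.311).

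Prkcb and Prkcd encode protein kinase C beta, which carries the signal to NF-kappaB, and protein kinase C delta, which is linked to B cell tolerance. Prkcb (chr7:122288751-122634402, plus strand) was at 139, 199.6 and 84.8 scaled TPM in MBCs and 19.9, 23.4, 26.1 and 26.8 in PCs. The lowest MBC library was above 3 times the highest PC library, with a log2FC of -2.43 (SE 0.369, adjusted p = 0.00308), called with each of the 7 libraries left out. Prkcd was at 93.9, 57.9 and 47.7 scaled TPM in MBCs and 41.6, 44.9, 78.7 and 40.3 in PCs. The groups overlapped, PC replicate 3 being above MBC replicates 2 and 3, with a log2FC of -0.36 (95% confidence interval -1.23 to 0.50, adjusted p = 0.611). Within a library, Prkcd took 40.4, 22.5 and 36.03% in MBCs and 67.6, 65.8, 75.1 and 60.05% in PCs of the summed TPM of both genes. Prkcb was thus the more abundant transcript in each MBC library and Prkcd in each PC library, with means of 32.97 ± 9.33% (SD) in the 3 MBC libraries and 67.1 ± 6.21% in the 4 PC libraries, which differ by 34.2 percentage points. The groups did not overlap (two-sided exact permutation p = 0.0286, adjusted p = 0.143 over the 10 shares computed), and 0.0286 is the smallest p that 3 against 4 libraries can give. This share does not depend on the scaling.

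The other kinases were not called. Syk, which docks on the phosphorylated CD79 chains, was at 92.1 ± 39.1 scaled TPM (SD) over the 3 MBC libraries and 42.9 ± 12.7 over the 4 PC libraries, a log2FC of -1.03 (SE 0.424, adjusted p = 0.176). The library labelled MBC replicate 3 (47.8) lay among the PCs, and without it Syk was called lower, with a log2FC of -1.44 (adjusted p = 0.0248). Btk, the Tec family kinase that activates phospholipase C gamma, was at 39.9 ± 10.4 scaled TPM (SD) over the 3 MBC libraries and 18.9 ± 5.72 over the 4 PC libraries, a log2FC of -1.05 (SE 0.395, adjusted p = 0.1404). Its groups did not overlap, with the lowest MBC library at 29.7 and the highest PC library at 25.8. Pik3cd, the leukocyte catalytic subunit of phosphoinositide 3-kinase, was at 31.8 ± 3.89 scaled TPM (SD) over the 3 MBC libraries and 28.6 ± 12.1 over the 4 PC libraries, a log2FC of -0.26 (95% confidence interval -1.26 to 0.74, adjusted p = 0.765). PC values of Pik3cd, from 12.5 to 40.1, spanned those of the MBCs.

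**Figure D2:**
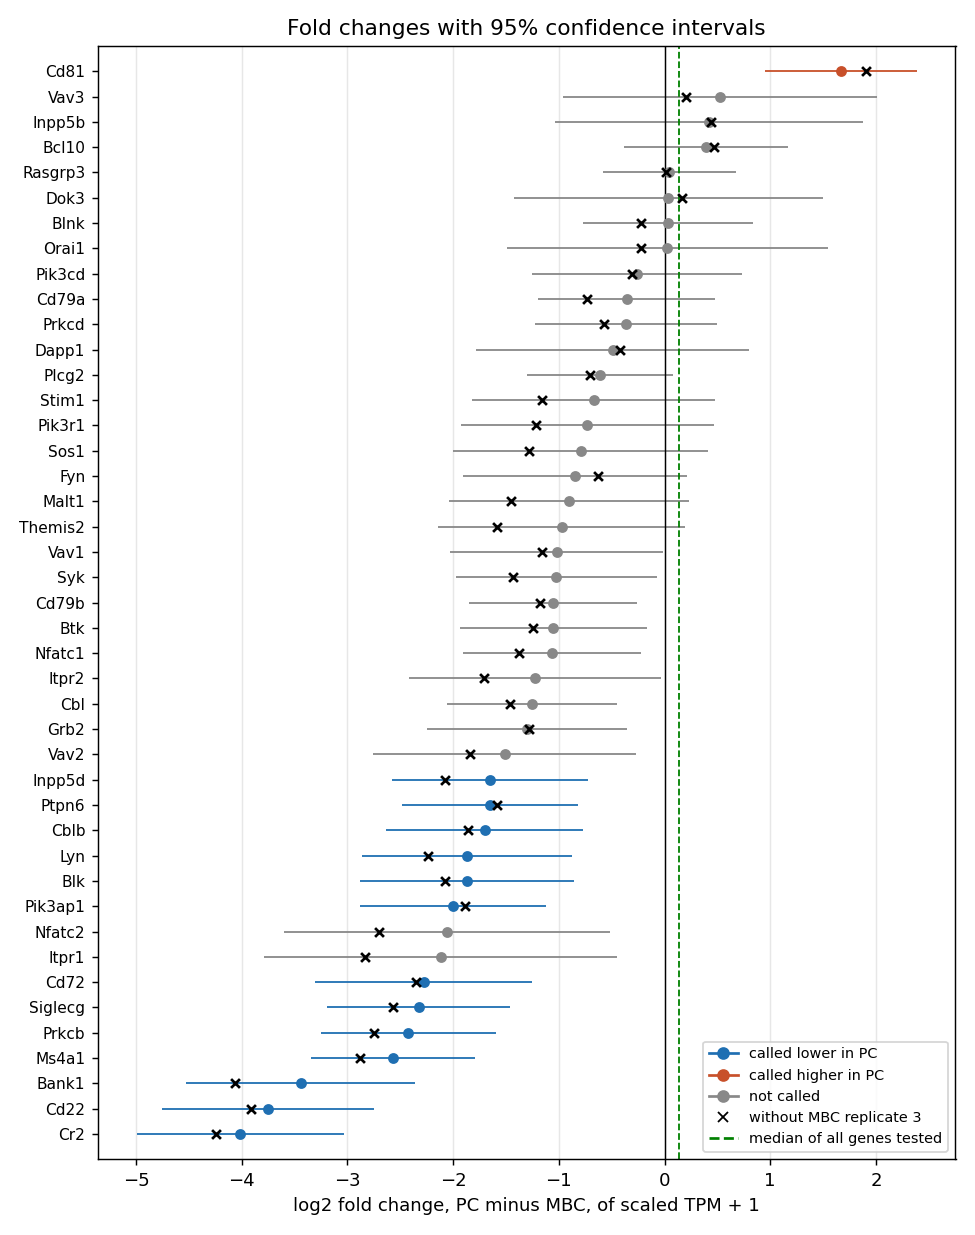
Log2 fold change of each of the 43 genes, PC minus MBC, on the log2(scaled TPM + 1) scale, with 95% confidence intervals from limma, sorted from highest to lowest. Colours mark the calls, crosses give the value without the library labelled MBC replicate 3, and the dashed line is the median of all genes tested (0.14). Of the 43 values, 35 lie below 0, and Cd81 is the one called higher, a call that was lost with quantile normalization, in TPM as deposited and with either replicate block.

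Adaptors were divided between 2 that were called lower and 6 that were not, with a median log2FC of -0.85 and 2 values above 0. Bank1, a scaffold that ties LYN to calcium release, was at 303, 298 and 80.4 scaled TPM in MBCs and 14.7, 17.3, 17.6 and 18.3 in PCs. MBC replicates 1 and 2 were alike, the library labelled MBC replicate 3 was much lower, and all were above the PCs, with a log2FC of -3.44 (SE 0.482, adjusted p = 0.00196) and a ratio of means of 13.4. Pik3ap1, an adaptor for phosphoinositide 3-kinase also known as BCAP, was at 34.2, 37.8 and 44.3 scaled TPM in MBCs and 8.02, 6.12, 10.4 and 12.1 in PCs. For this gene the library labelled MBC replicate 3 was the highest MBC, the groups did not overlap, and the log2FC of -2.001 (SE 0.391, adjusted p = 0.0124) was lost, of the 7 fits that leave out 1 library, only without PC replicate 2 (0.0544). Bank1 was called with each of the 7 libraries left out.

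In contrast, Blnk, the central scaffold that joins BTK to phospholipase C gamma, was at 139.6, 246 and 109 scaled TPM in MBCs and 178, 163, 184 and 119 in PCs. The PC values lay within the range of the MBCs, and the log2FC was 0.03 (95% confidence interval -0.77 to 0.84, adjusted p = 0.969), so that a change of 2 times in either direction lies outside the interval. The small positive value turned negative with immunoglobulin genes removed (-0.26), with immunoglobulin, mitochondrial and ribosomal RNA genes removed (-0.10), with quantile normalization (-0.64) and in TPM as deposited (-1.28, limma, adjusted p = 0.0173). Blnk was called lower in the last of these only. Dok3, an inhibitory adaptor, was at 17.9 ± 11.1 scaled TPM (SD) over the 3 MBC libraries and 19.3 ± 15.96 over the 4 PC libraries, a log2FC of 0.04 (95% confidence interval -1.43 to 1.497, adjusted p = 0.9797) that was negative in TPM as deposited (-1.21), with immunoglobulin genes removed (-0.24) and with immunoglobulin, mitochondrial and ribosomal RNA genes removed (-0.09). Grb2, the adaptor that brings in SOS1, was at 68.1 ± 36.3 scaled TPM (SD) over the 3 MBC libraries and 24.7 ± 4.02 over the 4 PC libraries, with a log2FC of -1.30 (SE 0.422, adjusted p = 0.0953). It was called lower without MBC replicate 1 (-1.72, adjusted p = 0.0321), in TPM as deposited, and after scaling without the immunoglobulin genes (-1.60, adjusted p = 0.0375).

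Themis2, which lowers the threshold of receptor signalling in B cells, was at 59.3 ± 43.01 scaled TPM (SD) over the 3 MBC libraries and 24.4 ± 4.27 over the 4 PC libraries, with a log2FC of -0.97 (SE 0.522, adjusted p = 0.291). Without the library labelled MBC replicate 3 (20.2) it was called lower, with a log2FC of -1.58 (adjusted p = 0.0229). Pik3r1, the regulatory subunit of phosphoinositide 3-kinase, was at 43.8 ± 26.4 scaled TPM (SD) over the 3 MBC libraries and 24.7 ± 12.3 over the 4 PC libraries, with a log2FC of -0.73 (SE 0.533, adjusted p = 0.443). Dapp1, a phosphoinositide-binding adaptor, was at 49.7 ± 34.02 scaled TPM (SD) over the 3 MBC libraries and 31.6 ± 13.2 over the 4 PC libraries, with a log2FC of -0.49 (SE 0.576, adjusted p = 0.654). Both genes varied widely among MBC libraries, Dapp1 from 17.8 to 85.5 and Pik3r1 from 19.0 to 71.6, and the groups overlapped.

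No phospholipase or exchange factor was called, and their median log2FC was -0.70. Plcg2, the phospholipase C gamma of B cells, was at 56.1 ± 6.903 scaled TPM (SD) over the 3 MBC libraries and 36.4 ± 4.22 over the 4 PC libraries, with a log2FC of -0.61 (SE 0.309, adjusted p = 0.267). Its lowest MBC library (48.9) was above its highest PC library (41.9), but both the log2FC and the adjusted p missed the thresholds for a call. Rasgrp3, which activates RAS downstream of diacylglycerol, was at 95.3 ± 5.38 scaled TPM (SD) over the 3 MBC libraries and 98.6 ± 10.3 over the 4 PC libraries. The log2FC was 0.04 (95% confidence interval -0.59 to 0.67, adjusted p = 0.942) and turned to -0.24, -0.09, -0.23 and -1.27 with immunoglobulin genes removed, with immunoglobulin, mitochondrial and ribosomal RNA genes removed, with quantile normalization and in TPM as deposited, the last being called (limma, adjusted p = 0.0122). Its 7 libraries lay between 88.4 and 109.6 scaled TPM. Sos1, the other RAS exchange factor, was at 11.9 ± 7.42 scaled TPM (SD) over the 3 MBC libraries and 5.57 ± 0.802 over the 4 PC libraries, with a log2FC of -0.79 (SE 0.538, adjusted p = 0.406).

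The Vav proteins are exchange factors for small GTPases. Vav1, the form of blood cells, was at 22.8, 55.3 and 26.3 scaled TPM in MBCs and 24.2, 13.7, 14.9 and 11.1 in PCs. Vav2 was at 30.7, 14.4 and 9.604 scaled TPM in MBCs and 8.699, 4.67, 2.64 and 5.73 in PCs. Vav3 was at 0.318, 5.66 and 0.594 scaled TPM in MBCs and 5.16, 2.04, 2.05 and 1.52 in PCs. Vav2 did not overlap between groups, with MBC replicate 1 the highest, whereas Vav1 and Vav3 overlapped, and MBC replicate 2 was well above the other MBCs for both. The log2FCs were -1.02 (SE 0.449, adjusted p = 0.199) for Vav1, -1.51 (SE 0.555, adjusted p = 0.134) for Vav2 and 0.52 (SE 0.663, adjusted p = 0.6798) for Vav3, the last being negative in TPM as deposited. Vav2 was called lower without the library labelled MBC replicate 3, with a log2FC of -1.84 (adjusted p = 0.0461). Vav1 made up 62.6 ± 17.5% of the 3 genes' TPM in the 3 MBC libraries (SD) and 66.8 ± 6.74% in the 4 PC libraries, overlapping (exact permutation p = 0.771, adjusted p = 0.857).

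Bcl10 and Malt1, which carry the signal from protein kinase C to NF-kappaB, were not called. Bcl10 was at 27.6 ± 2.79 scaled TPM (SD) over the 3 MBC libraries and 37.2 ± 9.38 over the 4 PC libraries, with a log2FC of 0.39 (95% confidence interval -0.39 to 1.17, adjusted p = 0.536). Its sign was positive in the main scaling and negative in TPM as deposited. Malt1 was at 49.2 ± 35.7 scaled TPM (SD) over the 3 MBC libraries and 21.5 ± 3.29 over the 4 PC libraries, with a log2FC of -0.90 (SE 0.507, adjusted p = 0.314). MBC replicate 2 (88.3) was the highest, the library labelled MBC replicate 3 (18.2) fell below all PCs, and without it Malt1 was called lower, with a log2FC of -1.45 (adjusted p = 0.0334).

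Phosphatases and ubiquitin ligases, which end the signal, were called lower in 3 of 5 cases, with 4 of 5 log2FCs below 0. Ptpn6, which encodes SHP-1, the phosphatase that CD22 and CD72 recruit, was at 70.7, 134 and 111 scaled TPM in MBCs and 30.8, 21.7, 36.02 and 41.8 in PCs. All MBCs were above all PCs, with a log2FC of -1.65 (SE 0.372, adjusted p = 0.0237). Leaving out MBC replicate 2 (0.0574) or PC replicate 1, 2 or 3 (0.0581 to 0.0868) raised the adjusted p above the threshold. Inpp5d, which encodes SHIP1, the phosphatase that acts on the product of phosphoinositide 3-kinase, was at 94.02, 108 and 40.5 scaled TPM in MBCs and 22.04, 20.1, 29.9 and 21.2 in PCs. The library labelled MBC replicate 3 was the nearest to the PCs, and the log2FC of -1.65 (SE 0.414, adjusted p = 0.03804) was called in the full set and, of the fits that leave out 1 library, only without that one (0.00393), not without any of the other 6 (0.0691 to 0.116). Inpp5b, a more widely expressed inositol phosphatase, was at 28.5, 4.18 and 12.1 scaled TPM in MBCs and 34.9, 11.3, 13.3 and 11.8 in PCs. The groups overlapped, with PC replicate 1 far above the other PCs, and the log2FC of 0.42 (95% confidence interval -1.04 to 1.88, adjusted p = 0.7402) became -0.81 in TPM as deposited. As a share of both genes' TPM, Inpp5b took 23.3, 3.72 and 23% in MBCs and 61.3, 35.9, 30.8 and 35.8% in PCs. Every PC library was above every MBC library, with means of 16.7 ± 11.2% (SD) in the 3 MBC libraries and 40.96 ± 13.8% in the 4 PC libraries (exact permutation p = 0.0286, adjusted p = 0.143).

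The ubiquitin ligases Cbl and Cblb tag activated receptor components for removal. Cbl was at 65.6, 53.4 and 37.4 scaled TPM in MBCs and 24.6, 17.7, 24.2 and 17.6 in PCs. Cblb was at 30.99, 24.3 and 18.96 scaled TPM in MBCs and 7.14, 6.54, 5.04 and 8.91 in PCs. For both genes all MBCs were above all PCs, and the library labelled MBC replicate 3 was the lowest MBC. Cblb had a log2FC of -1.70 (SE 0.416, adjusted p = 0.0342) and Cbl one of -1.25 (SE 0.359, adjusted p = 0.0628), so that Cblb was called and Cbl was not. The call of Cblb was kept without the library labelled MBC replicate 3 (0.0167) and lost without any of the other 6 (0.0514 to 0.118). Without the library labelled MBC replicate 3 Cbl was called as well, with a log2FC of -1.46 (adjusted p = 0.0181), and so it was with immunoglobulin genes removed (-1.55, adjusted p = 0.0342) and in TPM as deposited. The share of Cblb in the TPM of both was 32.4 ± 1.181% (SD) in the 3 MBC libraries and 25.1 ± 6.94% in the 4 PC libraries (exact permutation p = 0.171, adjusted p = 0.245), with overlap.

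Calcium channels and NFAT factors stand at the far end of the pathway, and none of the 6 was called in all libraries, with a median log2FC of -1.14. Itpr1 and Itpr2, the calcium release channels of the endoplasmic reticulum, varied widely. Itpr1 was at 110.4, 52.2 and 15.9 scaled TPM in MBCs and 23.5, 3.85, 14.9 and 5.897 in PCs. Itpr2 was at 101, 38.9 and 22.1 scaled TPM in MBCs and 25.1, 11.4, 21.01 and 19.1 in PCs. For both, MBC replicate 1 was the highest and the library labelled MBC replicate 3 the lowest MBC, inside the range of the PCs. The log2FCs were -2.12 (SE 0.746, adjusted p = 0.119) for Itpr1 and -1.22 (SE 0.531, adjusted p = 0.195) for Itpr2, and without the library labelled MBC replicate 3 they were -2.83 (adjusted p = 0.0241) and -1.71 (adjusted p = 0.0396), both called.

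Stim1, the calcium sensor of the endoplasmic reticulum, was at 22.4, 43.8 and 10.6 scaled TPM in MBCs and 15.6, 10.5, 18.5 and 10.7 in PCs. Orai1, the channel in the plasma membrane that STIM1 opens, was at 9.65, 1.63 and 2.18 scaled TPM in MBCs and 1.15, 3.91, 4.23 and 6.75 in PCs. Both overlapped between the groups, and Orai1 was among the least abundant members. The log2FCs were -0.67 (95% confidence interval -1.82 to 0.48, adjusted p = 0.465) for Stim1 and 0.03 (95% confidence interval -1.495 to 1.55, adjusted p = 0.986) for Orai1, the latter becoming negative with quantile normalization (-0.30), with immunoglobulin genes removed (-0.21), with immunoglobulin, mitochondrial and ribosomal RNA genes removed (-0.08) and in TPM as deposited (-0.98). NFAT factors enter the nucleus when calcium rises. Nfatc1 was at 69.4, 64.3 and 34.3 scaled TPM in MBCs and 30.5, 19.5, 25.5 and 26.1 in PCs. Nfatc2 was at 19.8, 99.8 and 10.7 scaled TPM in MBCs and 4.97, 6.18, 8.07 and 5.09 in PCs. All MBCs were above all PCs for both genes, MBC replicate 2 standing far above the others for Nfatc2, and the log2FCs were -1.06 (SE 0.376, adjusted p = 0.121) and -2.06 (SE 0.687, adjusted p = 0.104). Without the library labelled MBC replicate 3 both were called lower, at -1.38 (adjusted p = 0.0196) and -2.70 (adjusted p = 0.0209).

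The make-up of the pathway's transcripts differed as well. The 43 genes together took 0.736, 0.812 and 0.568% of TPM in MBCs and 0.1298, 0.143, 0.182 and 0.1502% in PCs. In scaled TPM they summed to 4042, 5475 and 2766 in MBCs and to 2041, 2118, 2239 and 2094 in PCs. Both measures were lower in each PC library than in each MBC library. Cd79a, Cd79b, Ms4a1, Bank1 and Cd22 were the 5 most abundant members in MBC replicates 1 and 2, with 49.0 and 49.5% of the summed TPM, and in the library labelled MBC replicate 3 Cd81 stood in the place of Bank1. In all 4 PC libraries the 5 most abundant were Cd79a, Cd81, Cd79b, Blnk and Rasgrp3, with 60.9 to 68.3%. Cd81 alone took 2.02, 2.20 and 5.99% of the summed TPM in MBCs and 16.4 to 18.6% in PCs. By mean level among the 43, Cd81 was in place 8 in MBCs and 2 in PCs, Blnk in places 6 and 4, and Rasgrp3 in places 12 and 5. In the other direction, Cd22 was in place 4 in MBCs and 25 in PCs, Bank1 in places 5 and 28, and Cr2 in places 11 and 41.

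**Figure D3:**
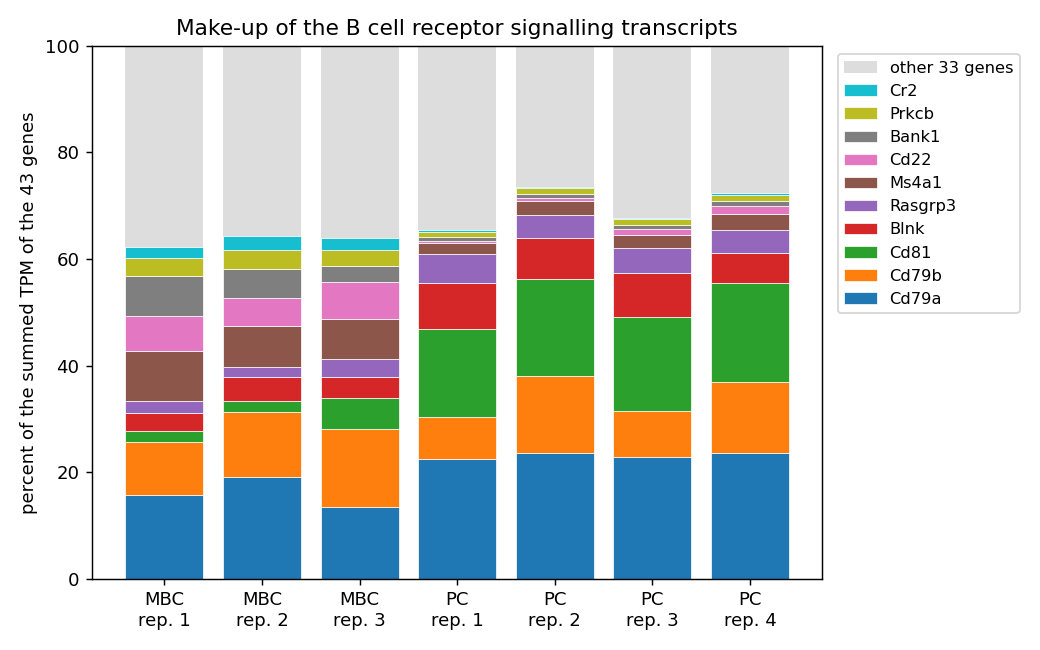
Make-up of the summed TPM of the 43 genes in each library, as percent of that sum, for the 10 genes named in the legend and the other 33 together. Cd81 takes 16.4 to 18.6% of each PC bar and 2.02 to 5.99% of each MBC bar, while Cd22, Bank1, Ms4a1 and Cr2 are narrower in PCs.

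Of the 10 shares between related members, 3 did not overlap between the groups: Prkcd of both protein kinase C genes, Inpp5b of both inositol phosphatases, and Cd79b of both signalling chains. Cd79b took 38.4, 39.2 and 51.7% in MBCs and 26.3, 38.1, 27.5 and 36.1% in PCs of the summed TPM of Cd79a and Cd79b, and was lower in each PC library than in each MBC library, by a narrow margin (exact permutation p = 0.0571, adjusted p = 0.1905). The means were 43.1 ± 7.497% (SD) in the 3 MBC libraries and 32 ± 5.98% in the 4 PC libraries. The remaining 7 overlapped, with exact permutation p from 0.143 to 0.914. Of the 3 Src family transcripts Lyn took 67.6 ± 13.9% (SD) in the 3 MBC libraries and 65.1 ± 2.96% in the 4 PC libraries, and Fyn 10.6 ± 7.46% (SD) in the 3 MBC libraries and 17.6 ± 1.58% in the 4 PC libraries. Of both NFAT genes Nfatc1 took 64.4 ± 21.8% (SD) in the 3 MBC libraries and 80.4 ± 5.22% in the 4 PC libraries. Itpr1 took 50.5 ± 7.89% (SD) in the 3 MBC libraries and 34.7 ± 12.2% in the 4 PC libraries of both release channels, and Stim1 83.1 ± 13.2% (SD) in the 3 MBC libraries and 77.2 ± 13.4% in the 4 PC libraries of Stim1 and Orai1. With adjustment over the 10 shares no p was under 0.05, the smallest being 0.143, and at the unadjusted level 2 were under 0.05.

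**Figure D4:**
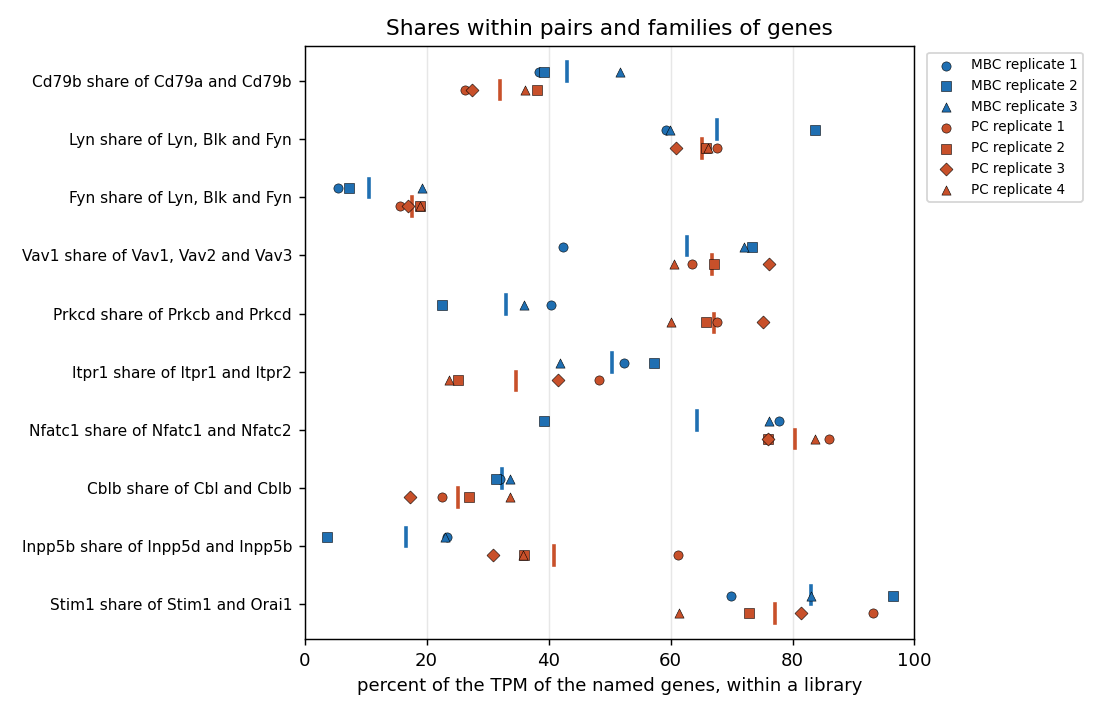
Share of one gene in the summed TPM of 2 or 3 related genes within each library, in percent, for the 10 shares computed. Points are single libraries, MBCs in blue above and PCs in orange below each line, and vertical ticks are group means. The Prkcd share lies at 22.5 to 40.4% in MBCs and 60.0 to 75.1% in PCs.

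Further genes of the pathway were also examined, chosen like the members with earlier results of these data known. They were a list of 76 named for their roles beside the 43. Of these, 67 passed the filter, 9 were called lower in PCs (13.4%, against 2.14% of all genes tested) and 0 higher (against 6.41%), with a median log2FC of -0.53 (0.14 over all genes tested). At an unadjusted p under 0.05, 23 were lower and 6 higher, compared with 1033 and 1770 of all 11573. The calls rose to 21 lower (31.3% of the 67, against 8.2% of all) and 2 higher (Hras and Pik3cg, against 15.1% of all) once the library labelled MBC replicate 3 had been dropped. Pecam1, an inhibitory adhesion receptor, had a log2FC of -3.09 (SE 0.774, adjusted p = 0.0381), with MBCs at 68.8, 183 and 13.3 scaled TPM and PCs at 3.29 to 8.37. Hcls1, a substrate of the receptor's kinases, had a log2FC of -2.09 (SE 0.449, adjusted p = 0.0191). The kinase Tec had one of -1.81 (SE 0.436, adjusted p = 0.0324). Pag1, Sh3kbp1 and Rac2 were also called lower, as was Ptprc. The B220 protein that Ptprc encodes was used to sort MBCs as B220+ and PCs as B220lo. The transcript level of Ptprc may therefore not be independent of the gates, which was not tested. When each of the 7 libraries was left out in turn, Pecam1 and Ptprc were called only without the library labelled MBC replicate 3. Hcls1 and Tec were called in 2 of the 7 fits. Ptprc was not called with the replicate number or the title code as a block (limma, adjusted p = 0.110 and 0.0745). Every other omission of 1 library left 1 to 4 of these further genes called lower, with 93 to 153 of all genes tested.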

How the data were processed

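Gene-level TPM of 3 MBC and 4 PC libraries (total RNA, NuGEN cDNA kit, Illumina HiSeq) were used as deposited by the authors, in 1 table of 48795 Ensembl genes. The submitters' processing notes name STAR 2.5.2a, RSEM 1.3.0, DESeq2 1.18.1 and GRCm38; roles, settings and strand use are not given in the sources used here. Immunoglobulin, mitochondrial and ribosomal RNA content moves every TPM value, so a scaling factor was taken for each library as the median, over the 9305 genes detected everywhere, of TPM relative to the gene's geometric mean. Genes at 1 TPM or more in 3 or more libraries entered limma 3.58.1 (R 4.3.3, eBayes with trend) as log2(scaled TPM + 1), without covariates. Fold changes were called at an adjusted p under 0.05 and an absolute log2 value of at least 1. Shares within a library were compared by the exact two-sided permutation test of the difference in means over 35 assignments. Scripts were tested on simulated data. There the limma procedure called 41% of log2 changes of 2 and 89% of changes of 4, 1 of them with the wrong sign. It also called 16 of 10405 unchanged genes. A gene that was not called may therefore still differ, and a called gene may be unchanged.

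The members and gene lists were chosen with earlier results of these data known. All members were named; values in every library were given for members called in either direction and for those entering a share, and, of the other pathway genes, the 5 called with the largest absolute log2 fold change in each direction were to be named, of which 2 are not reported here. Symbols, positions and exon overlaps came from GENCODE M21. Replicates are separate samples, and p-values measure only the spread between them, which may be partly technical. TPM hold no depth. The reads that 1 TPM as deposited is worth in a transcript of 1 kb were estimated from the steps between low values. They were 6.28, 6.97 and 11.7 in MBCs and 14.5, 15.2, 9.28 and 16.5 in PCs, the fewest in MBC replicates 1 and 2. This order does not hold for scaled TPM, where 1 unit equals the library's scaling factor in TPM as deposited. The factors were 1.82, 1.48 and 2.05 in MBCs and 0.636, 0.673, 0.813 and 0.717 in PCs. Groups came from the sample descriptions. Each MBC library shared a code in its title with 1 PC library: MBC replicate 1 with PC replicate 1, 2 with 3 and 3 with 4. The labels do not say what the code marks. Libraries with the same replicate number did not deviate together from their group means (correlations 0.109, -0.04 and -0.083). Nor did all libraries that share a title code (0.109, -0.0044 and 0.222). The main fits were not paired, and fits with either block are given as alternatives. Alternatives were 4 other scalings, a pseudocount of 0.1, no filter, no trend, library weights, replicate blocks, the title prefix and leaving out each library.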

Additional observations from a re-analysis of the deposited data

Results flagged for a closer look

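Among the 4 PC libraries, 53 levels and shares were examined for a single library far from the rest (the gap to the nearest library, relative to the range, being above Dixon's 95% critical value for 4 samples), and 6 were found, where chance gives about 1 in 20, or 2.65. PC replicate 1 was the library concerned in 5 of them. Inpp5b was at 34.9 scaled TPM in PC replicate 1 and 11.3 to 13.3 in the other PCs, and its share of Inpp5d and Inpp5b was 61.3%, compared with 30.8 to 35.9%. Dok3 was at 42.9 in PC replicate 1, compared with 8.25 to 14.0 scaled TPM, and Vav3 at 5.16, compared with 1.52 to 2.05. Fyn was lower there, at 6.12, compared with 7.11 to 7.31. Prkcd was at 78.7 scaled TPM in PC replicate 3, compared with 40.3 to 44.9 in the other PCs.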

How the results depend on the processing

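Across 19 alternatives, 5 of the 13 members called lower (Cr2, Ms4a1, Cd22, Prkcb and Bank1) were called every time, and 5 of the 43 members kept both direction and side of the threshold throughout. In TPM as deposited 37 members were called lower and 0 higher, with 41 other pathway genes lower and 472 genes higher and 3018 lower of all tested. With immunoglobulin genes removed the last counts were 393 and 431, with 16 other pathway genes lower, and with mitochondrial and ribosomal RNA genes also removed 433 genes were higher. Quantile normalization gave 0 members higher and 460 genes lower. Testing all genes above 0 gave 437 genes higher and 123 lower, with 1 and 3 other pathway genes. Without a trend, 5 other pathway genes were called lower. Only libraries of the more frequent title prefix gave 448 genes lower, with 2 other pathway genes higher and 14 lower.

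Leaving out 1 library gave 456 to 1624 genes higher, 93 to 881 lower, 7 to 22 members lower, 1 higher, and 0 to 2 other pathway genes higher and 1 to 21 lower. The highest counts came without the library labelled MBC replicate 3 and the lowest of members without PC replicate 2 (7), with 8 without PC replicate 1 or 3. Each fit has 2 MBC and 4 PC libraries or 3 of each.

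With the replicate number as a block, 5 members were called lower and 0 higher, with 1 other pathway gene lower and 390 genes higher and 60 lower. With the title code as a block the counts were 7, 0, 1, 434 and 83. Cd81, Lyn, Blk, Pik3ap1, Ptpn6, Inpp5d and Cblb were called with neither block. By number and code, the limma adjusted p was 0.0949 and 0.101 for Pik3ap1, 0.124 and 0.0840 for Lyn, and 0.201 and 0.152 for Blk. It was 0.113 and 0.108 for Ptpn6, 0.192 and 0.114 for Inpp5d, and 0.177 and 0.175 for Cblb. These blocks pair only 6 of the 7 libraries, and of the 3 MBC libraries replicates 1 and 3 correlated best with the PC library of their own code and replicate 2 did not. The cause of the lower counts was not tested.

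Signs changed for members near 0. In TPM as deposited these were Blnk (-1.28), Rasgrp3 (-1.27), Dok3 (-1.21), Orai1 (-0.98), Bcl10 (-0.90), Inpp5b (-0.81) and Vav3 (-0.23). With immunoglobulin genes removed they were Blnk (-0.26), Rasgrp3 (-0.24), Dok3 (-0.24) and Orai1 (-0.21), and with mitochondrial and ribosomal RNA genes also removed -0.099, -0.0864, -0.0881 and -0.0806. Quantile normalization gave Blnk -0.64, Orai1 -0.30 and Rasgrp3 -0.23, and library weights Inpp5b -0.0806, Dok3 -0.0385 and Rasgrp3 -0.0225. The title prefix as a covariate gave Blnk -0.0225, the more frequent prefix alone Blnk -0.0841 and Orai1 -0.47, and the blocks by number and code Orai1 -0.23 and -0.0114. Leaving out 1 library moved Blnk from -0.22 to 0.33, Dok3 from -0.54 to 0.44, Inpp5b from -0.25 to 1.007, Orai1 from -0.38 to 0.62 and Pik3cd from -0.46 to 0.0948. No difference in shares moved by more than the spread between libraries, but leaving out 1 library changed some signs and sizes, in percentage points: Lyn from -6.63 to 5.58, Vav1 from -5.92 to 9.595 and Stim1 from -12.5 to 0.761, while Nfatc1 came to 3.42 without MBC replicate 2 and Cd79b to -6.77 without the library labelled MBC replicate 3. Vav3 and Orai1 had the fewest estimated reads, with 17.5 and 18 in their lowest library.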

Other observations

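Among the other pathway genes, Pik3cg, the catalytic subunit of phosphoinositide 3-kinase that acts mainly downstream of G protein coupled receptors, ran opposite to most of the list and was chosen after its values were seen. It was at 17.2, 14.1 and 25.3 scaled TPM in MBCs and 42.2, 52.4, 49.7 and 39.4 in PCs, so that all PCs were above all MBCs, with a log2 fold change of 1.27 (limma, SE 0.351, adjusted p = 0.0558). Without the library labelled MBC replicate 3 it was called higher, at 1.48 (adjusted p = 0.0140). Hras, a small GTPase, was listed at 0 in MBC replicates 1 and 2, whereas the library labelled MBC replicate 3 held 7.29 scaled TPM and the PCs 5.63 to 8.59.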
